A study of Homo sapiens with 2 samples.

Results

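The 48 genes described here carry out or drive cell division: the kinases and cyclins of mitotic entry, the spindle checkpoint, the centromere and kinetochore, the chromosomal passenger complex, mitotic kinesins, condensin, securin and separase, and transcription factors of the late cell cycle. They were chosen by name from their known roles, with no measured value in the rule, and all 48 had a row among the 57736 genes of the tables. The cells were HEK293T, an established human line of embryonic kidney origin in which the large T antigen of SV40 is expressed, with a wild type genotype label, no treatment, and growth to 80% confluency. Poly(A)+ RNA was sequenced in 2 libraries, replicates 1 and 2, which make up a single group, so the design has no contrast between conditions and the questions below are how much RNA each gene had, in what proportions partners of a complex were present, and how far the libraries differed. The labels do not say whether the replicates came from separate cultures, so that the spread between them may be technical.

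Mitosis is switched on when CDK1 pairs with cyclin B, and it is switched off when the anaphase-promoting complex, activated by CDC20, marks cyclin B and securin for destruction. In between, condensin compacts the chromosomes, the Ndc80 complex of the kinetochore holds the spindle microtubules, and the spindle checkpoint keeps CDC20 blocked until every chromosome is attached. Many genes of this program are transcribed in G2 and M phases and are held down in resting cells by the DREAM complex, which binds the cell cycle genes homology region (CHR), a short promoter element. The CHR often lies close to the transcription start with CCAAT boxes, the sites of the factor NF-Y, farther upstream. Large T antigen binds the retinoblastoma family of proteins, to which the pocket proteins of DREAM belong.

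Promoter letters are shown first because they are a feature that the choice of genes did not use. RefSeq promoter windows of the GRCh38.p14 build, reaching from 250 bases before to 50 bases after a start, were matched by symbol to 41 of the 48 genes, and 8 of these genes had more than 1 start, which gave 53 windows. The genes AURKA, BIRC5, BUB3, FOXM1, NCAPH2, TPX2 and TTK had no window in the table. The letters TTTGAA, or TTTAAA in some genes, were searched for as the core of a CHR, and CCAAT as the core of an NF-Y site, on both strands. In the 6 stretches printed next, each of 120 bases from 110 bases before the start to 9 after it, capitals mark these letters (ATTGG is CCAAT read on the other strand). The stretch of CDC25C belongs to the start numbered 4 of its windows. These stretches are shown because they hold both elements in the arrangement described above, in genes of mitotic entry, cytokinesis and chromosome structure.
CCNB1, chr5:69167040-69167159, plus strand: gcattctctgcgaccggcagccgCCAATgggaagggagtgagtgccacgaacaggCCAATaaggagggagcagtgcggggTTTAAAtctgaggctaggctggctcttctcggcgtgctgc
KIF20A, chr5:138179002-138179121, plus strand: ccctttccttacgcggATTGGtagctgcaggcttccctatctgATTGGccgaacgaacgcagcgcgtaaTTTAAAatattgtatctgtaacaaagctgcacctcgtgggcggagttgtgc
CCNB2, chr15:59105036-59105155, plus strand: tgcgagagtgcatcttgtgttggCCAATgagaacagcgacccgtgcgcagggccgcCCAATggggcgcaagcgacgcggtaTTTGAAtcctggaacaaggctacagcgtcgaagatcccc
PLK1, chr16:23678779-23678898, plus strand: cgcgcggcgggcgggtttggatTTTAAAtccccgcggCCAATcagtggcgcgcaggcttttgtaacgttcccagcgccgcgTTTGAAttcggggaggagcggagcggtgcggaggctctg
CDC25C, chr5:138331795-138331914, minus strand: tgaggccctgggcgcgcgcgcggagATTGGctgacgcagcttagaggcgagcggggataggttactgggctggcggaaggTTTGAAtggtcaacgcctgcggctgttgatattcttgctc
MKI67, chr10:128126414-128126533, minus strand: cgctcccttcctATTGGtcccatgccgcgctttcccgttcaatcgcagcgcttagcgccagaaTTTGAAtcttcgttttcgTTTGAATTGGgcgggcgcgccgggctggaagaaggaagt
Within these stretches the cyclin genes CCNB1 and CCNB2 had the same layout, where position 0 is the start base. CCAAT letters started at -87 in both and at -55 and -54, and CHR letters at -30 and -29. There CCNB1 carried TTTAAA and CCNB2 carried TTTGAA. Farther upstream, the CCNB2 window also held CCAAT at -244 and -120 and TTTAAA at -193. In MKI67 the second TTTGAA, at -29, shared its last A with an ATTGG. In PLK1 a TTTAAA at -88 lay upstream of the TTTGAA at -29.

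TTTGAA was present in 29 of the 53 windows (54.7%), beside 15.2% of the 35116 windows in the table. With TTTAAA allowed as well, 37 windows (69.8%) held a match, beside 24.0%. CCAAT was present in 35 windows (66.0%), beside 34.6%, and 22 windows (41.5%) held both TTTGAA and CCAAT, beside 5.90%. The letters of an E2F site, taken as TTT followed by CC, GG, CG or GC and then CGC, were found in 4 windows (7.55%) of CDK1, CENPA and NCAPD3, beside 3.31%. Within the 100 bases around the start, TTTGAA was found in 41.5% of the members' windows and 4.62% of all windows, and CCAAT in 24.5% and 10.7%. Counted once per gene, TTTGAA was found in 27 of 41 genes (65.9%), beside 18.2% of all genes in the table. These are counts of letters and not of bound sites.

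The matches were spread over the windows, from position -247 to 43 for TTTGAA. Of 35 TTTGAA matches in the members' windows, 12 (34.3%) started 40 to 10 bases before the start, beside 9.49% of the 6238 matches in all windows. Of 71 CCAAT matches, 48 (67.6%) started 130 to 40 bases before it, beside 45.01% in all windows. Both ranges were set after the positions were seen. Windows of the same gene can overlap, as those of PTTG1 do, so some sites were counted more than once. TTTGAA stood in some window of 27 genes, 7 genes (CCNB1, CDC25B, CENPE, KIF20A, KIF2C, NCAPH and PTTG1) had TTTAAA alone, and 7 (AURKB, BUB1, CCNA2, CENPI, CENPK, MYBL2 and SPC24) had neither in these windows. The median TPM (a level scaled by transcript length and set to the same total in each library) was 60.9 over the genes with TTTGAA and 72.9 over the 14 genes with a window and no TTTGAA.

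**Figure D1:**
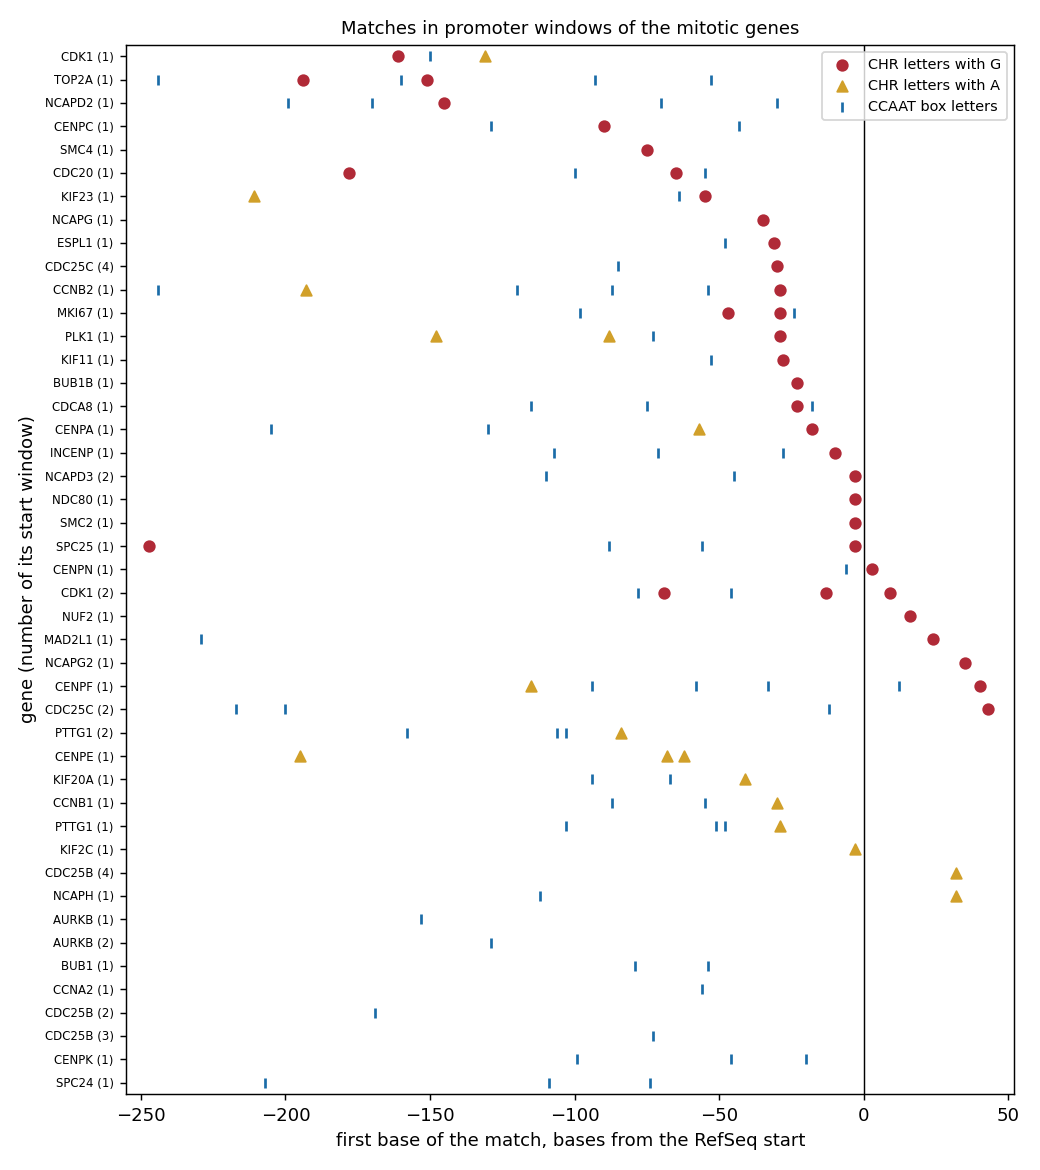
Positions of CHR letters (red circles, TTTGAA; yellow triangles, TTTAAA) and CCAAT letters (blue ticks), on either strand, in the RefSeq windows of the members that hold a match; the x axis gives the match's leftmost base in bases from the start, and each line is a window. Of the 35 TTTGAA matches, 12 lie 40 to 10 bases before the start, and 48 of the 71 CCAAT matches start 130 to 40 bases before it.

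The mitotic genes were all detected and most were well above the typical gene. With detection set as 1 TPM or more in each replicate, 48 of 48 were detected, beside 27.7% of all genes and 63.7% of protein-coding genes. Their median TPM was 67.4 in replicate 1 and 62.6 in replicate 2, and the median of the mean TPM was 64.0, beside 21.2 for detected protein-coding genes and 14.8 for all detected genes. On the scale of log2(mean TPM + 1), these medians were 6.02, 4.47 and 3.98. A mean TPM of at least 100 was reached by 14 members (29.2%), beside 10.7% of detected protein-coding genes, and 46 members lay above the median of the latter. Together the members held 0.401% and 0.403% of all TPM, a mean of 0.402% ± 0.00143 (SD, n = 2). In RNA of whole cultures, fewer cells in G2 or M phase and less RNA per cell cannot be told apart.

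The libraries held 10593491 and 10104118 estimated counts, in which reads matching more than 1 gene are divided between those genes, and the members had between 188 counts (CENPA, replicate 2) and 8519 counts (MKI67, replicate 1). A count of 0 would have allowed up to 0.283 and 0.297 CPM (counts scaled to a common library total), which covers counting error alone. Of 18 kidney markers used to check the labelled tissue, 17 had a row, 4 were detected (GATA3, WT1, LRP2 and PAX2), and 7 were at 0 counts in both libraries, among them the tubule gene UMOD. The proximal tubule gene LRP2 had 585 and 579 counts, whereas AQP1 had 5 and 8 and CUBN 6 and 8.

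**Figure D2:**
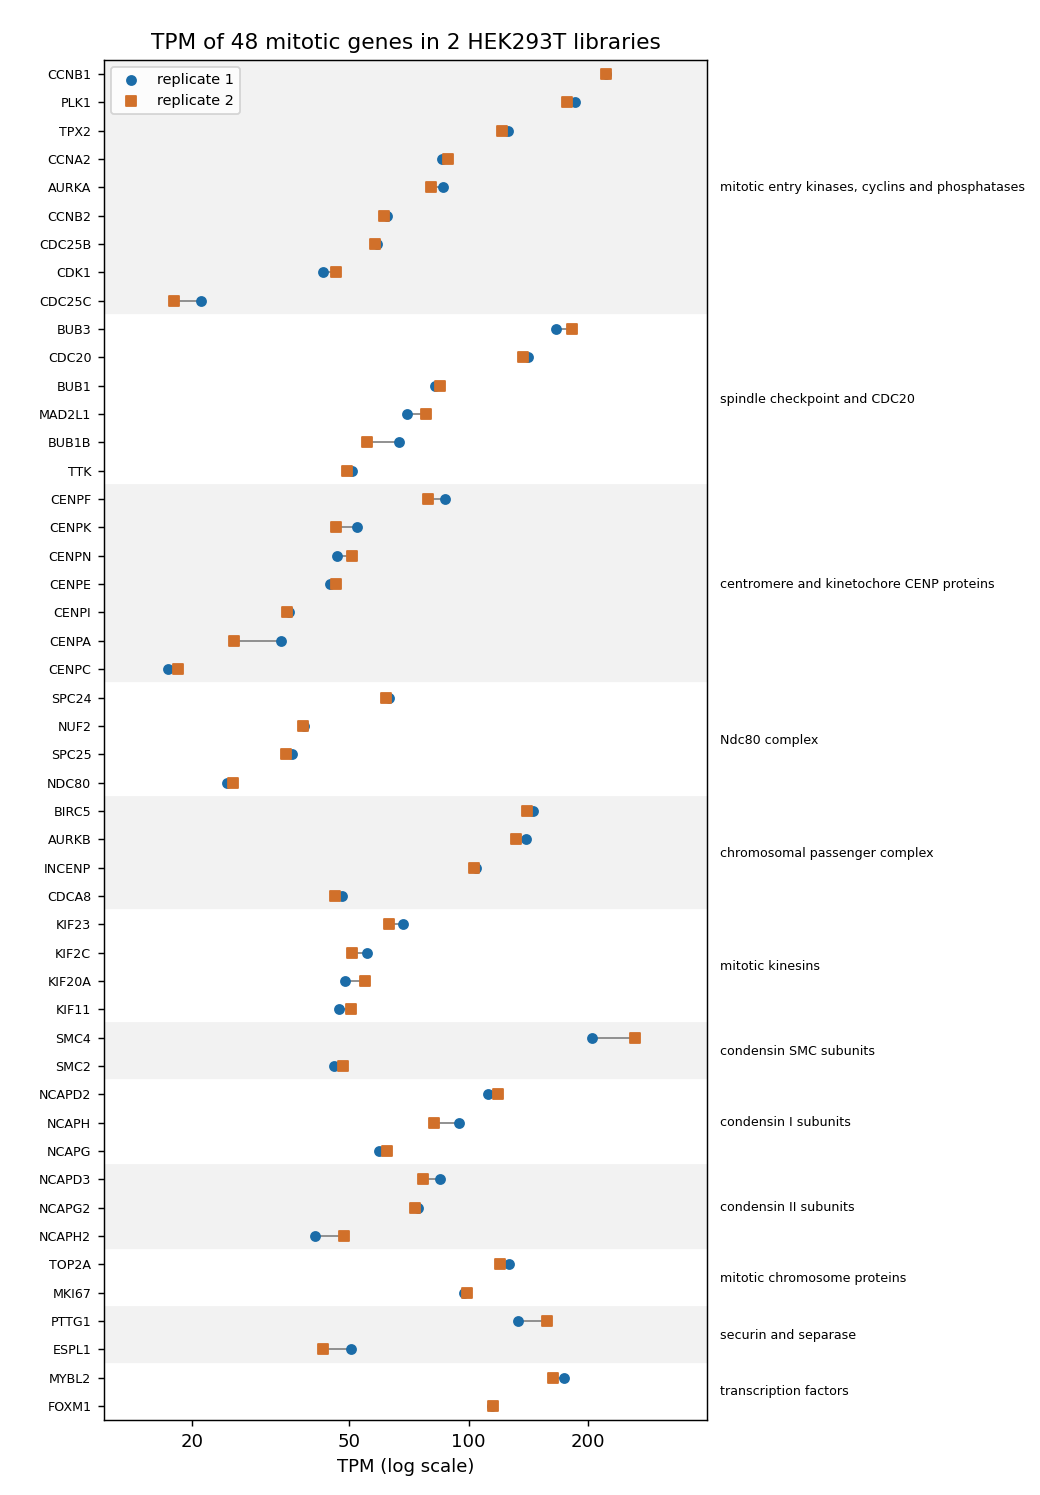
TPM of each gene in replicate 1 (blue circles) and replicate 2 (orange squares), on a log axis, with genes grouped by role and ordered by mean TPM within a role; grey lines join the replicates. The range runs from CENPC, at 17.4 and 18.4, to SMC4, at 205 and 262, and the widest gaps between the libraries are those of CENPA and SMC4.

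Among the genes of mitotic entry, the levels spanned a range of 11.3-fold between the highest and the lowest mean. CCNB1, which encodes cyclin B1, the partner that gives CDK1 its mitotic activity, had 222 TPM in both replicates. CCNB2, the other mitotic B-type cyclin, had 62.1 and 60.9 TPM, and CCNA2, the cyclin of S and G2 phases, had 85.4 and 88.6. The kinase itself was lower than its cyclins, since CDK1 had 42.8 and 46.2 TPM, and the ratio of CCNB1 to CDK1 was 4.99 ± 0.272 (SD, n = 2). PLK1, the polo-like kinase that promotes entry and spindle assembly, had 185 and 177 TPM. AURKA, the kinase of the centrosomes and spindle poles, had 86.2 and 80.5 TPM, and its activator TPX2 had 126 and 122. Of the phosphatases that activate CDK1, CDC25B had 58.8 and 58.0 TPM and CDC25C, the lowest of this group, had 21.1 and 18.1. The replicates of CCNB1, PLK1, TPX2, CDC25B and CDC25C did not overlap with one another by TPM, and CCNA2 and AURKA were not apart.

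These ratios depend on the length that TPM divides by. RSEM, the program behind the tables, uses an effective length averaged over the transcripts of a gene by their estimated share. A second scale was therefore computed, with the counts of each gene divided by the length of its longest listed transcript. These lengths were read from GENCODE 44 and not from the RSEM output. For CCNB2 (1488 bases), CDCA8 (2371) and CCNA2 (2748) they fell below the gene's effective lengths. The second scale is thus uncertain, most plainly for these genes. On that scale CCNB1 remained above its partners, at 2.20 times CCNB2 in place of 3.60 times, and 3.70 times CDK1 in place of 4.99 times. PLK1 was 4.08 times CDK1 by TPM and 2.13 times on the second scale. The order of PLK1 and TPX2 turned, since PLK1 had 55.1 and 55.8 counts per kilobase of the longest transcript (scaled to library totals) and TPX2 had 84.6 and 82.7. CDC25B was 2.997 times CDC25C by TPM and 3.03 times by longest transcript.

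The spindle checkpoint genes lay between 50.05 and 174 TPM as means. BUB3, the adaptor that carries BUB1 and BUB1B to the kinetochore, had 166 and 183 TPM. CDC20, the target of the checkpoint and activator of the anaphase-promoting complex, had 141 and 137. BUB1, a kinase that recruits the other checkpoint proteins, had 82.2 and 84.7 TPM, and MAD2L1, which binds and blocks CDC20, had 69.8 and 78.2. BUB1B, which encodes BUBR1, had 66.6 and 55.3 TPM, the largest ratio between the libraries in this group. TTK, the MPS1 kinase at the head of the pathway, had 50.7 and 49.4. BUB3 was 2.09 ± 0.0968 times BUB1 by TPM, but 0.517 times on the scale of the longest transcript, so the data give no firm order for this pair. With 20.9 and 22.7 counts per kilobase of the longest transcript, BUB3 also fell below CDC20 at 86.4 and 82.9, BUB1B at 28.0 and 27.6, and TTK at 23.0 and 23.9, so its place at the head of the group rests on the TPM scale. The longest listed BUB3 transcript has 7703 bases, whereas its effective lengths were 1375 and 1349.

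The centromere and kinetochore CENP genes had a median of 45.5 TPM, below that of the checkpoint genes at 78.7. CENPF, a large kinetochore and nuclear matrix protein, was the highest at 87.1 and 79.0 TPM, and CENPE, the kinesin that moves chromosomes to the spindle equator, had 44.7 and 46.2. Of the inner kinetochore subunits, CENPK had 52.1 and 46.1 TPM, CENPN 46.4 and 50.9, and CENPI 35.3 and 34.8. CENPA, the histone H3 variant that marks the centromere, had 33.6 and 25.6 TPM, and CENPC, which links CENPA chromatin to the outer kinetochore, had 17.4 and 18.4. CENPC had the lowest mean of the 48 genes, with a range that overlapped that of CDC25C by TPM, and it was the lowest on the second length scale too. The range of CENPK overlapped those of CENPN and CENPE, so its place among them is not resolved.

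The Ndc80 complex binds microtubules with its subunits NDC80 and NUF2 and reaches the inner kinetochore with SPC24 and SPC25. NDC80 had 24.5 and 25.5 TPM, NUF2 38.4 and 38.2, SPC25 35.7 and 34.5, and SPC24 62.9 and 61.7. The complex holds its subunits in equal number, but the RNA levels were unequal by TPM, with SPC24 at 2.49 ± 0.0994 times NDC80 (SD, n = 2), NUF2 at 1.53 times and SPC25 at 1.41 ± 0.0724 times. By longest transcript these ratios were 1.25, 1.44 and 1.16, so NDC80 was the lowest on both scales while SPC24 was the highest by TPM alone.

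The chromosomal passenger complex corrects faulty attachments and later directs cytokinesis. BIRC5, which encodes survivin, had 145 and 140 TPM, AURKB, the kinase of the complex, had 139 and 132, and INCENP, its scaffold, had 104 and 103. CDCA8, which encodes borealin, had 47.9 and 46.1 TPM, below the other 3 subunits in both libraries. BIRC5 was 3.04 ± 0.00877 times CDCA8 by TPM and 2.15 times by longest transcript. Of the groups with at least 3 genes, the mitotic kinesins were the most even by TPM, with means within 1.34-fold. KIF23, a motor of the central spindle, had 68.1 and 63.0 TPM, and KIF2C, which takes down faulty microtubule ends, had 55.2 and 50.6. KIF20A, which carries the passenger complex to the midzone, had 48.8 and 54.6, and KIF11, which pushes the spindle poles apart, had 47.1 and 50.5. The range of KIF20A overlapped those of KIF2C and KIF11.

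Condensin is built on the SMC2 and SMC4 pair, to which condensin I adds NCAPD2, NCAPG and NCAPH and condensin II adds NCAPD3, NCAPG2 and NCAPH2. SMC4 (GRCh37 chromosome 3, 160117062 to 160152742, plus strand) had 205 and 262 TPM, the highest mean of the 48 genes, although its range took in the value of CCNB1. SMC2, its partner, had 45.8 and 48.1 TPM. The SMC4 to SMC2 ratio was 4.47 in replicate 1 and 5.45 in replicate 2 by TPM, and 3.51 and 3.60 by longest transcript. On that second scale MYBL2 and not SMC4 had the highest level.

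The condensin I subunits exceeded those of condensin II by a modest amount. NCAPD2 had 112 and 119 TPM, NCAPH 94.3 and 81.8, and NCAPG 59.4 and 62.2. NCAPD3 had 84.6 and 76.8 TPM, NCAPG2 74.5 and 73.3, and NCAPH2 41.0 and 48.5. The difference of the mean log2(TPM + 1) was 0.42 in replicate 1 and 0.38 in replicate 2, a mean of 0.40 ± 0.03 (SD, n = 2), and 0.25 as a difference of medians. The pairs of matching subunits did not all point the same way. NCAPD2 was 1.43 times NCAPD3 and NCAPH was 1.99 ± 0.436 times NCAPH2, whereas NCAPG was 0.823 ± 0.0367 times NCAPG2. By longest transcript these ratios were 1.94, 1.22 and 0.876. With 2 libraries no permutation test can reach the usual threshold, so the difference is given as a value without a test.

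TOP2A, the topoisomerase that disentangles sister chromatids and works beside condensin, had 126 and 120 TPM. MKI67, the surface protein of mitotic chromosomes known as the Ki-67 proliferation marker, had 97.3 and 98.8. PTTG1, which encodes securin, had 133 and 158 TPM, and ESPL1, the separase that securin holds inactive, had 50.5 and 43.0. Securin RNA was 3.15 ± 0.739 times that of separase by TPM and 2.90 ± 0.255 times by longest transcript. MYBL2, the B-MYB factor that joins the MuvB core to switch these genes on, had 174 and 163 TPM, and FOXM1, the factor that follows it in G2 phase, had 114 and 115. MYBL2 was 1.47 ± 0.0776 times FOXM1 by TPM and 1.67 times by longest transcript.

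Across the whole set, most neighbours in level were not resolved. No other set of genes was ordered in this way, so this is not a trait of the members. With members ordered by mean TPM, the replicate ranges of 30 of the 47 neighbouring pairs overlapped, and those of 17 were apart. The genes were spread over 19 chromosomes, with no more than 5 on any of them.

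How far the libraries differed was asked of the reads, with an exact two-sided binomial test of each gene's rounded counts and Benjamini-Hochberg adjustment over 17920 genes with at least 10 summed counts. The test compares these libraries and not conditions, and since amplified reads are not independent molecules its p-values cover counting error alone. Of the 48 members, 3 (6.25%) had an adjusted p under 0.05, beside 3.87% of all genes tested, and 10 (20.8%) had an unadjusted p under 0.05, beside 13.3%. Among the 8246 genes with summed counts within the members' range, the shares were 4.46% and 17.2%. The share among the members was thus near that of other genes.

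All 3 had more reads in replicate 2. SMC4 had 5085 and 5315 counts, a CPM ratio of replicate 2 to replicate 1 of 1.096 and an adjusted p of 7.39e-05 by the exact binomial test. TOP2A (chromosome 17, 38544777 to 38574148, minus strand) had 3966 and 4082 counts, a CPM ratio of 1.08 and an adjusted p of 0.00996 by the same exact test. NCAPG (chromosome 4, 17812602 to 17846488, plus strand) had 1445 and 1539 counts, a CPM ratio of 1.12 and an adjusted p of 0.0418 by that exact test. With total counts as the library sizes the list was MKI67, SMC4 and TOP2A, beside 704 of 17920 genes called. With no filter on low counts it was SMC4 and TOP2A, beside 455 of 57736. Among the 25 members whose counts were whole, TOP2A alone was called, beside 69 of the 8780 genes tested with whole counts.

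TPM and reads moved the same way in 36 members and in opposite ways in 12. In TOP2A the reads were higher in replicate 2 but the TPM was lower, with a TPM ratio of 0.952, and its effective length was 4216 bases in replicate 1 and 4735 in replicate 2. In SMC4 the TPM ratio of 1.28 exceeded the CPM ratio, and its effective length was 3330.2 and 2822 bases. Over the members the effective length ratio ran from 0.848 (SMC4) to 1.19 (CENPA), and in 12 of them the longer value exceeded the shorter by more than 10 percent. The TPM ratio was farther from 1 than the CPM ratio in 29 members. The deposited TPM intervals of the libraries overlapped in 47 of the 48 members, the exception being SMC4 with 193 to 226 and 241 to 282 TPM, but in 7 members of each library the deposited TPM lay outside its own interval. CENPA had the largest TPM difference, with a log2 ratio of -0.39, whereas it had 215 and 188 counts. The median absolute log2 TPM ratio was 0.08 over the members, beside 0.10 over 6408 detected protein-coding genes within the same range of levels, and that of CPM was 0.06, beside 0.07.

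**Figure D3:**
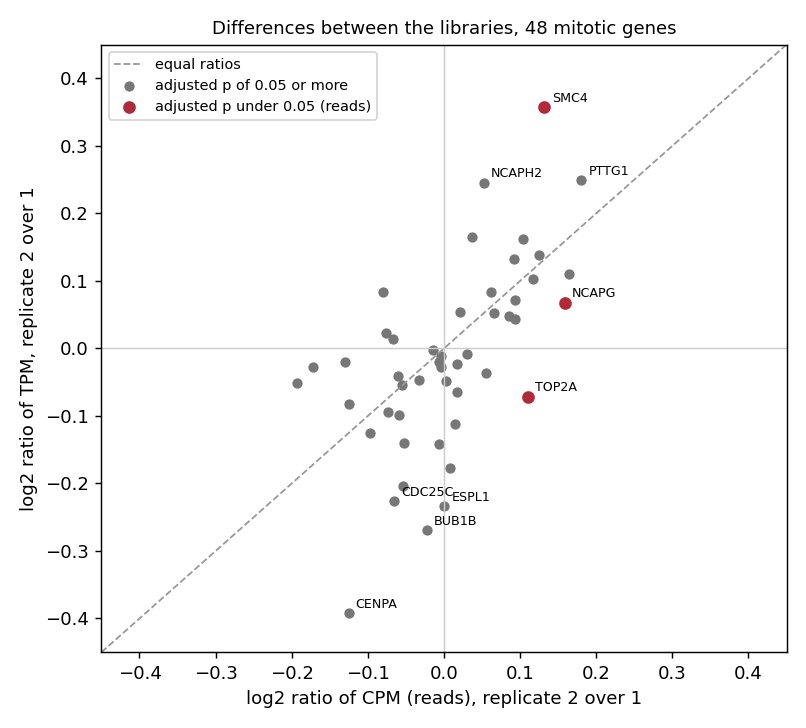
The log2 ratio of TPM (y axis) against the log2 ratio of CPM (x axis), replicate 2 over replicate 1, for the 48 genes; red points have an adjusted p under 0.05 in the exact binomial test of reads, and the dashed line marks equal ratios. SMC4 and NCAPG are higher in replicate 2 on both axes, TOP2A is higher in reads and lower in TPM, and CENPA lies lowest at -0.39 on the TPM axis.

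Some members share sequence with other genes. In 23 of the 48 the counts were not whole numbers (to within 0.01). The other 25 had whole counts, beside 8780 of the 17920 genes tested between the libraries. Fractional counts were thus not particular to the members. The largest deposited posterior SD of a count was 6.88 (SMC4), and posterior SDs were at most 0.486% of a member's count. Exons of 25 other genes overlapped those of 17 members on GRCh37, and in 13 members the other gene had at least 100 summed counts. CDC25C (chromosome 5, 137620958 to 137674044, minus strand), with 248 and 226 counts, shares 293 exon bases with FAM53C on the opposite strand, which had 1556 and 1439. CENPA, with 215 and 188 counts, shares 138 exon bases with SLC35F6 on the same strand, which had 759 and 682. NCAPG shares 1634 exon bases with LCORL and SMC4 shares 1553 with TRIM59, both on the opposite strand. The sources used here do not state if strand was used in counting. CCNA2 had 1751.7 and 1749.3 counts, and EXOSC9 on the opposite strand had 800.3 and 774.7. KIF20A had 979.2 and 1003.2, and CDC23 opposite it had 1166.8 and 1077.8. In both pairs the fractions make up a whole number in each library, so reads were divided between opposite strands. The levels of such pairs are thus uncertain. The counts of CENPA and SLC35F6 were whole numbers. Pseudogenes were searched for only under the member's symbol followed by P and a number. Those found took few reads: 17 pseudogenes of 14 members had a row, and the highest count was 11.97 (AURKAP1). Copies under other names were not looked at. BIRC5, for example, had posterior SDs of 5.01 and 4.44 counts but no such pseudogene and no overlapping gene.

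Other genes of the same processes, taken from lists of known roles, were detected as fully as the members. Of the other kinetochore and CENP genes, 33 of 33 were detected with a median of 39.8 TPM, from the kinetochore protein ZWINT at 179 to CENPP at 4.90. All 18 genes of the anaphase-promoting complex and its partners were detected at a median of 49.8 TPM, led by the ubiquitin-conjugating enzymes UBE2S at 359 and UBE2C at 210. The lowest were ANAPC10 at 18.4 and CDC26 at 17.0. The 24 spindle and cytokinesis genes had a median of 51.9 TPM, from the midzone protein PRC1 at 175.5 and the contractile ring protein ANLN at 144 to the kinesins KIF15 at 17.6 and KIF18A at 9.86.

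The 21 other regulators of entry and exit had a median of 67.0 TPM. ENSA, an inhibitor of the PP2A phosphatase, had 308 TPM, while MASTL, the kinase that activates it, had 22.5. The 13 subunits of DREAM and NF-Y had a median of 29.6 TPM, from the histone-binding protein RBBP4 at 382 to LIN37 at 8.16. The 15 G1 cyclins, kinases and inhibitors had a median of 32.8 TPM, with CDKN2A at 303 and CDK4 at 274, and the CDK inhibitor genes CDKN2D and CDKN1C at 3.82 and 3.28. In these lists and among the relatives described last, 133 genes were tested between the libraries by the exact binomial test. Of these, 0 had an adjusted p under 0.05, beside 3.87% of all genes tested. The count stayed at 0 with any of the normalizations and filters tried. An unadjusted p under 0.05 was found for 22 of the 133, beside 13.3% of all genes tested.

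**Figure D4:**
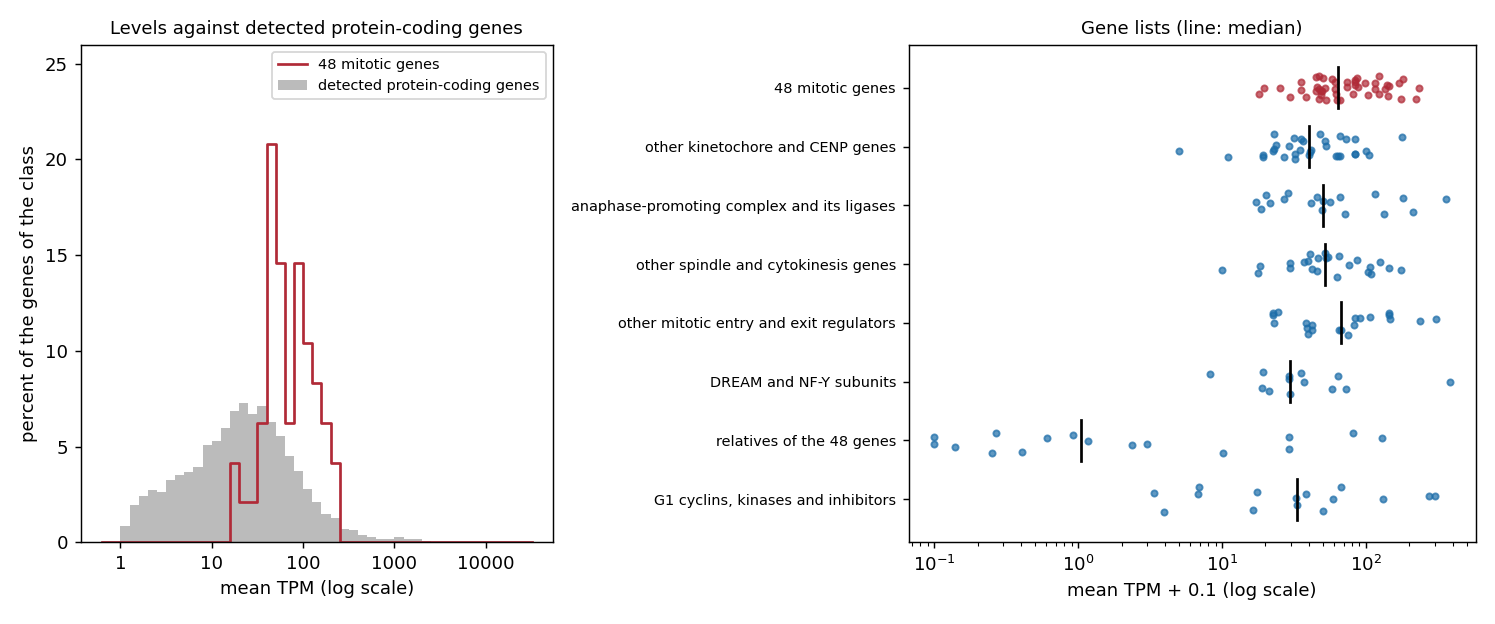
Left, the share of genes in each step of mean TPM (log axis) for the 48 mitotic genes (red line) and for detected protein-coding genes (grey bars); right, mean TPM plus 0.1 (log axis) of every gene in each list, with a black line at the list's median. The mitotic genes have a median of 64.0 TPM, and the other pathway lists range from 29.6 to 67.0. The relatives of the members, listed as tissue-restricted or germ line genes, have a median of 0.945.

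Relatives of the members, listed as tissue-restricted or germ line genes, were mostly much lower, with 7 of 16 detected and a median of 0.945 TPM. Many were chosen for their restricted use, so this median does not describe relatives in general. The meiotic cyclin CCNA1 had 0 and 1 counts, beside 1752 and 1749 for CCNA2, and AURKC, the Aurora kinase of germ cells, had 2 counts in each library, beside 980 and 858 for AURKB. The retrogenes PTTG2 and BIRC8 had 0 counts in both, and the meiotic cohesin subunit SMC1B had 4 and 5. CCNB3, a cyclin of meiosis, had 0.81 and 0.84 TPM. Among the polo-like kinases, PLK4, which starts centriole duplication, had 24.5 and 34.04 TPM, PLK3 had 1.81 and 2.75, PLK2 1.42 and 0.71, and PLK5 0.31 and 0.70, beside 185 and 177 for PLK1. CDC20B had 0 and 0.34 TPM. TOP2B, the topoisomerase of resting and cycling cells alike, had 128 and 130 TPM, in the same range as TOP2A. MAD2L2, which acts in DNA repair, had 83.7 and 79.2 TPM, and the kinesin KIF20B had 26.4 and 31.8. Of the MYB family, MYBL1 had 10.7 and 9.28 TPM and MYB had 3.36 and 2.42, both below MYBL2.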

How the data were processed

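Poly(A)+ RNA libraries of HEK293T cells were read at 50 bases on a HiSeq instrument. Per the submitters' processing notes, the authors used Trimmomatic 0.36, STAR 2.6.1c and RSEM 1.3.1 on hg19/GRCh37.p13; the methods of the study name featureCounts with an Ensembl gene list, but the columns are those of RSEM. The deposited estimated counts share a read among the genes it fits. The sources used here do not state if strand was used, although some genes on opposite strands shared reads. The deposited TPM and FPKM values are scaled by effective length, TPM to a fixed total and FPKM by library reads. The posterior SDs and TPM interval bounds are scores deposited by the authors, as are transcript lengths. A deposited table of the pooled reads was not used.

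Symbols and GRCh37 coordinates came from GENCODE 44 mapped to that build (96.1% of 57736 identifiers matched). Levels were log2(mean TPM + 1) with no filter other than the stated detection limit. Estimated counts were rounded to whole numbers and tested between libraries by the exact two-sided binomial test (scipy 1.17.1) against TMM-scaled library sizes (edgeR 4.0.16, R 4.3.3), with p-values adjusted by the Benjamini-Hochberg method across genes having 10 or more summed counts; the test was checked on simulated counts. Alternatives were other normalizations, filters, pseudocounts, units, promoter windows and leaving out a replicate; counts per kilobase of the longest transcript, the length scale given beside the ratios, was added after the values were seen, as were per-gene and narrower promoter counts of CCAAT. Promoter sequences came from RefSeq (GRCh38.p14), and no coordinates were converted between builds. All 48 members could be named; of each other list, the 2 highest and 2 lowest genes, those at 0 counts and every relative of the members could be named, and for some lists fewer are. The members, lists and comparisons were chosen with earlier results of these data known.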

Additional observations from a re-analysis of the deposited data

How the results depend on the processing

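No paired analysis was possible because all samples belong to a single group. Detection of the 48 members was the same under every limit and unit tried. Over the results and alternatives scored, 82 recomputed values stayed within the spread between replicates or near the reported count, 30 moved and 1 reversed. Many of the 82 leave out a replicate. For a ratio this returns the other replicate's own value, so it lies within the spread by design. Most ratios moved by longest transcript. Orders that were not scored also turned on that scale, such as those of PLK1 and TPX2 and of SMC4 and MYBL2. The median level of the members, 6.02 as log2(mean TPM + 1), was 5.53 from FPKM, 6.89 from CPM and 5.06 from counts per kilobase of the longest transcript, and 5.99 to 6.10 leaving out a replicate. The members' share, 0.402% of TPM, was 0.768% of estimated counts and 0.578% of protein-coding TPM, and 0.401% to 0.403% leaving out a replicate. The number of members that differed between the libraries fell from 3 to 1 among genes with whole counts, where fewer genes were tested. Condensin I minus condensin II, 0.40, was 0.31 from CPM, 0.25 as a difference of medians and 0.34 by longest transcript, and 0.38 to 0.42 leaving out a replicate. Neighbouring pairs that were not apart rose from 30 to 46 with the deposited TPM intervals. The share of promoter windows with CHR letters, 54.7%, was 69.8% with TTTAAA allowed. BUB3 over BUB1 turned from 2.09 to 0.517 by longest transcript, where the same counts were divided by other lengths. Why the lengths differ, and the cause of the other shifts, was not tested. Genes called between the libraries numbered 693 of 17920 tested, 455 of 57736 with no filter on low counts and 69 of 8780 among whole counts. Depth limits the least covered members most, such as CENPA with 188 counts, and lists of genes near the floor of 3 counts.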
